A study of Mus musculus with 288 samples.

Results

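The D-type cyclin genes Ccnd1, Ccnd2 and Ccnd3 were followed through a screen of mouse bone marrow-derived macrophages. They were chosen by symbol, and all 3 were found among the 23481 genes of the table. Marrow cells of C57BL/6 mice, labelled 12 weeks old, were grown for 7 days with M-CSF, then pretreated for 24 h with dCA (100 nM) or with 1 µM BRD-6989. Other wells had DMSO, the solvent control, for which the labels give no duration. The labels call both compounds inhibitors of CDK8, a kinase of the Mediator complex that adjusts transcription. The cells were then left alone (NoStim) or given 1 of 11 stimuli, written here as in the labels: CpG, FLA, LPS, MDP, MDP_LPS, Pam3cys, Poly(I:C), R848, SeV, TDB and Zymosan. Collection at 15, 30, 45, 60, 90, 120, 150 and 180 min gave 1 well for each combination, 96 wells per pretreatment. No mutation was labelled, and the DMSO, dCA and BRD-6989 cells had the same strain, serum-containing medium and M-CSF culture. The labels pair this assay with TF-seq, a reporter panel, and how cells received its constructs is not given in the sources used here. The series text names a longer span of times than the wells' own labels, which were followed. The labels name no separate cultures or animals, and no combination had a repeat well. The p-values therefore measure how a change varied between wells, or between libraries summed over times, of unlike stimulus, plate or time. Each pretreatment filled 1 plate, each stimulus 1 plate column and each time 1 plate row, so pretreatment and plate, stimulus and column, and time and row cannot be told apart.

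RNA was read by 3′ digital gene expression, in which each captured molecule carries a random barcode (unique molecular identifier, UMI) and is counted once near its 3′ end, so a level is not scaled to gene length. The 3 members passed the filter on low counts in every test that used all 3 plates. Ccnd3 had 94 UMI in the 96 dCA wells, too few to pass it in every fit of those wells alone. Levels are given as CPM, the UMI of a gene per 1e6 UMI of the well or library, with Rn45s, the ribosomal RNA precursor, left out. The wells held 21810 to 70797 such UMI, so 1 UMI was worth a median of 25.3 CPM, and Rn45s took 52.7% ± 6.88 of UMI with DMSO, 49.0% ± 7.04 with dCA and 43.6% ± 6.75 after BRD-6989 (SD, n = 96 wells each). Of 10 macrophage markers 9 were in the table and none was at 0, with summed levels of 7085 CPM in DMSO (5126 to 10956 in single wells), 7158 after dCA (5163 to 9139) and 7712 after BRD-6989 (5417 to 9805). The 6 of 7 neutrophil markers in the table summed to 35.0 CPM in DMSO (0 to 215 in single wells), with Elane at 0, and to 3.61 after dCA (0 to 48.6) and 2.54 after BRD-6989 (0 to 60.1), where Camp, Ltf and Elane were at 0; their part in the results was not tested. Markers of T cells (5 of 6 in the table), B cells (5 of 5) and fibroblasts (5 of 5) summed to at most 2.82 CPM on any plate. Single wells reached up to 232 CPM, for T cells in DMSO. Those of dendritic cells (5 of 5) summed to 22.6, 18.9 and 18.5, with up to 258 in a single well. Most of this was Xcr1, at 20.9, 18.3 and 16.2 CPM, while the defining gene Flt3 was at 0. All 6 erythroid markers were at 0 UMI on each plate, a count that allows up to 0.847 CPM each in DMSO. Since these are bulk wells, fewer cells of a type and less RNA per cell cannot be told apart.

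D-type cyclins are the regulatory partners of the kinases CDK4 and CDK6. A growth factor such as M-CSF raises them, the active kinases phosphorylate the RB proteins, and E2F factors are then released to switch on genes of DNA replication. The CIP/KIP and INK4 inhibitors restrain these kinases, and ubiquitin ligases keep the cyclins short-lived. In macrophages, cyclin D1 is a known M-CSF target, and bacterial products are known to halt M-CSF-driven proliferation.

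In GRCm38.p6 (mm10) Ccnd1 lies at chr7:144929931-144939831, where the annotation also places LTO1. Ccnd2 lies at chr6:127125162-127152188, overlapping 9330179D12Rik, which had 3 UMI in all wells together. Ccnd3 lies at chr17:47505051-47599689 and overlaps Gm41590 and the ribosome assembly gene Bysl, which had 315 UMI. Whether strand was used in counting is not given in the sources used here, so reads of overlapping genes may not be separable. The RefSeq promoter table (GRCm38.p6; 250 bases before to 50 after a gene start) matched 1 of the 3 members by symbol, Ccnd3, with 2 start sites. Both windows are shown as the promoters matched for a member; capitals mark the Sp1 motif, GGGCGG or its reverse complement CCGCCC.
Ccnd3 upstream start, chr17:47504801-47505100, + strand: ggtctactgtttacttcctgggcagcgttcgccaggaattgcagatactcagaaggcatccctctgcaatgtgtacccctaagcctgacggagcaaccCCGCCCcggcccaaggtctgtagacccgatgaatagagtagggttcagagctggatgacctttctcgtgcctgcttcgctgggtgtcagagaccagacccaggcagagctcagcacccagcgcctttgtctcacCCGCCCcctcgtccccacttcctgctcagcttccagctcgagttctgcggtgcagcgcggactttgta
Ccnd3 downstream start, chr17:47593217-47593516, + strand: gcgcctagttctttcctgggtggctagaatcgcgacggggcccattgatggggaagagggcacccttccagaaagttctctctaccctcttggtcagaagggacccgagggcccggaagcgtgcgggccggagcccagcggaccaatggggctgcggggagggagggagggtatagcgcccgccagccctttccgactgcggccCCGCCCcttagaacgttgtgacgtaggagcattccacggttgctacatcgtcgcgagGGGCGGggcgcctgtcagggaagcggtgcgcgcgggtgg
Each window holds GGGCGG at 2 places, as do at least once 35.7% of the 32851 promoter windows of the table. The upstream window has 59.3% G and C with 15 CpG pairs and the downstream one 67.0% with 28, beside medians of 52.7% and 7. A search of both strands found no AP-1 (TGANTCA, in 7.81% of all windows), CRE (TGACGTCA, 1.79%), E-box (CACGTG, 7.15%), NF-kB (GGGANTTTC, 1.11%), E2F (TTTCGCGC, 0.323%, and TTTGGCGC, 0.514%), STAT (TTCNNNGAA, 8.30%) or ETS (ACCGGAAG, 2.30%) letters in either window, so no other match overlapped those of Sp1.

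Ccnd1 was the most abundant of the 3 transcripts, Ccnd2 followed and Ccnd3 was scarce. Over the 12 summed libraries of a pretreatment, each holding the 8 times of 1 condition, Ccnd1 stood at 1159 ± 198 CPM in DMSO (SD, n = 12), from 829.6 in MDP_LPS to 1453 in SeV. It stood at 986 ± 176 in dCA and 992 ± 123 in BRD-6989, and these ranges overlapped that of DMSO. Ccnd2 stood at 460.1 ± 171 CPM in DMSO, 359 ± 266 after dCA and 254 ± 201 after BRD-6989, with MDP_LPS the highest library on each plate. The lowest Ccnd2 library was MDP in DMSO (249) but NoStim after dCA (150.1) and after BRD-6989 (92.8). Ccnd3 stood at 52.1 ± 23.9, 26.6 ± 14.1 and 25.4 ± 14.2 CPM, which rests on 186, 94 and 111 UMI in 96 wells each. Relative to its mean, the SD of Ccnd2 was larger than that of Ccnd1 in each pretreatment, although in CPM it was the smaller of the pair in DMSO.

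**Figure D1:**
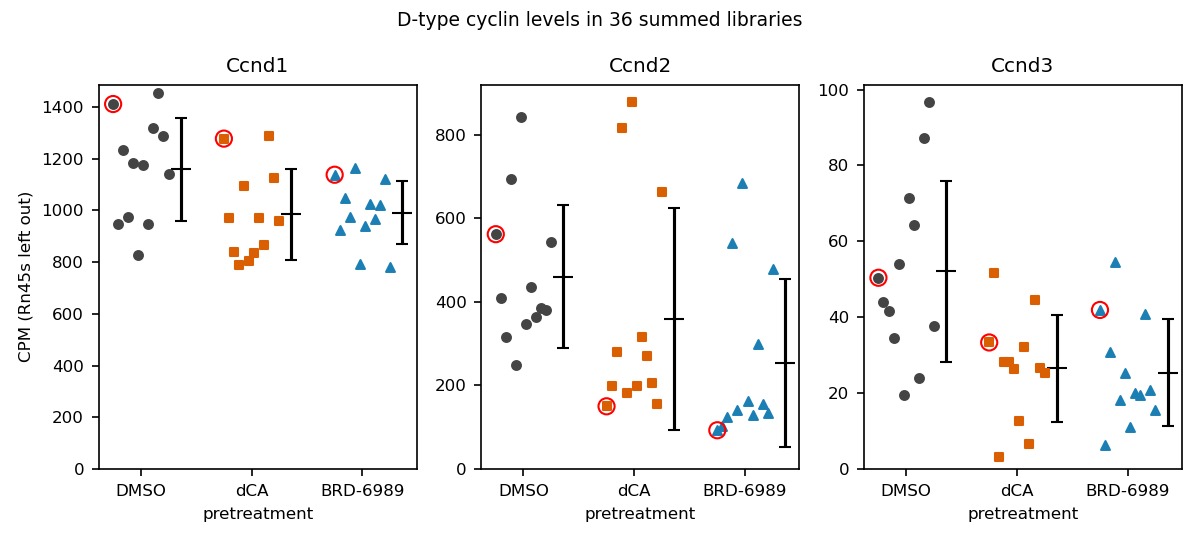
Level of each D-type cyclin (y axis, CPM) in 36 libraries by pretreatment (x axis); each point is 1 condition, a red ring marks NoStim, and the bar is the mean ± SD of 12 libraries. The NoStim library lies near the top for Ccnd1 and, in dCA and BRD-6989, at the bottom for Ccnd2 (150.1 and 92.8 CPM).

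Against DMSO, Ccnd2 was lower with both compounds over the 12 conditions. With dCA it fell by 0.49 on the log2 scale (SE 0.14, 1.40-fold lower, adjusted p = 0.0131) and was lower in 9 of 12 conditions. With BRD-6989 it fell by 1.04 (SE 0.14, 2.06-fold lower, adjusted p = 1.05e-07) and was lower in 12 of 12. Ccnd3 was lower with dCA at -0.93 ± 0.32 (adjusted p = 0.0449) and with BRD-6989 at -0.97 ± 0.32 (adjusted p = 0.0289), in 10 of 12 conditions each. Ccnd1 was lower with BRD-6989 at -0.17 ± 0.06 (adjusted p = 0.0485, 11 of 12 conditions), while its value with dCA, -0.16 ± 0.06, missed the threshold (adjusted p = 0.0832, 10 of 12). These are edgeR quasi-likelihood tests with Benjamini-Hochberg adjustment over 7785 genes and 0.05 as the threshold, as are all that follow with their own gene numbers; a log2 change is printed ± its SE. So 2 of 3 members were called lower with dCA and 3 of 3 with BRD-6989, beside 13.4% and 15.4% of all tested genes called, 5.95% and 7.42% of them as lower.

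The calls differed in how firmly they stood. That of Ccnd2 with BRD-6989 was kept when any 1 condition was left out (adjusted p up to 1.17e-06), and that with dCA ended without NoStim (adjusted p = 0.0592) and in the wells of 60 min and later (-0.25, adjusted p = 0.39). In the wells of 15 to 45 min alone, a window taken after seeing the data, Ccnd2 stood at -1.13 with dCA (adjusted p = 2.34e-05) and -1.68 with BRD-6989 (adjusted p = 3.22e-09). The Ccnd3 call with dCA ended without NoStim, FLA, MDP, Pam3cys, Poly(I:C), R848, SeV or TDB (adjusted p from 0.054 to 0.118), and that with BRD-6989 without CpG, MDP, Pam3cys, Poly(I:C), SeV or TDB (from 0.0505 to 0.0861). The Ccnd1 call with BRD-6989 ended without NoStim, FLA, Pam3cys, R848, SeV, TDB or Zymosan (from 0.0555 to 0.127), and the Ccnd1 value with dCA passed without Poly(I:C) (adjusted p = 0.0498). The Rn45s share, which fell from DMSO to dCA to BRD-6989, moves with these differences. With it as a covariate the Ccnd2 values were -0.58 (adjusted p = 0.0357) and -1.28 (adjusted p = 0.0128). The other member calls, of Ccnd1 with BRD-6989 and of Ccnd3 with either compound, ended with this covariate, as listed in the closing section. Without condition as a block neither Ccnd2 value passed, at -0.28 with dCA (adjusted p = 0.651) and -0.81 with BRD-6989 (0.0713).

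The compounds were used at different doses, so their values stand side by side. Ccnd2 was 0.56 ± 0.15 higher with dCA at 100 nM than with BRD-6989 at 1 µM (log2, adjusted p = 0.0238), in 11 of 12 conditions, a comparison in which 1.95% of genes were called. That call ended without FLA (adjusted p = 0.0786) or Poly(I:C) (0.0824). It also ended with the Rn45s share as a covariate, without condition as a block and on total reads. The same held with only the earlier or only the later times summed. The Ccnd2 value stayed positive in each of these fits, which the closing section lists. For Ccnd1 the difference was 0.01 ± 0.06 with a 95% interval of -0.11 to 0.14, and for Ccnd3 it was 0.05 ± 0.34 with -0.62 to 0.72.

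In unstimulated macrophages the estimated Ccnd2 difference was larger than over the 12 conditions, which include NoStim and were scaled in another way. A direct test of the compounds' effect with stimuli against that in NoStim did not pass, as given below. The 8 DMSO wells of NoStim, from 15 to 180 min, read 280.1, 673, 1359, 256, 564, 462, 675 and 444 CPM. The 8 dCA wells read 207, 336, 26.0, 69.8, 82.6, 208, 55.5 and 199 CPM, and the 8 BRD-6989 wells read 95.8, 113, 153, 83.0, 66.8, 69.5, 161 and 21.2 CPM. Every BRD-6989 well was below every DMSO well, whereas the highest dCA well overlapped the lowest DMSO wells; at each of the 8 times both compounds were below DMSO. With time as a block, Ccnd2 was at -1.87 ± 0.47 with dCA (log2, 3.66-fold lower, adjusted p = 0.0151) and -2.52 ± 0.49 with BRD-6989 (5.73-fold lower, adjusted p = 8.97e-05). It was the only member called, in comparisons where 0.874% and 1.06% of 5834 genes were. The DMSO well of 45 min, the highest, stood apart from the others (39 UMI); without the wells of 45 min the value with dCA was -1.52 and no longer passed (adjusted p = 0.241), nor did it without those of 150 min (0.0869), while BRD-6989 kept its call without any 1 time. On total reads in place of UMI neither passed, at -1.94 with dCA (adjusted p = 0.201) and -2.03 with BRD-6989 (adjusted p = 0.144).

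Ccnd1 had no such called difference in the same wells. Its 8 DMSO wells ran from 1053 to 2202 CPM with a median of 1242. The dCA wells ran from 805 to 2026 (median 1273) and the BRD-6989 wells from 434 to 1613 (median 1142). The 3 sets overlapped widely, and the values of -0.18 ± 0.19 with dCA (95% interval -0.56 to 0.20, adjusted p = 0.937) and -0.36 ± 0.19 with BRD-6989 (-0.74 to 0.02, adjusted p = 0.645) did not pass. With the Rn45s share as a covariate the BRD-6989 value passed, at -0.99 (adjusted p = 0.0344). Ccnd3 had 14, 10 and 14 UMI in the 8 wells of DMSO, dCA and BRD-6989, and its values of -0.41 with dCA (95% interval -2.89 to 2.07) and -0.35 with BRD-6989 (-2.80 to 2.10) did not pass.

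With stimulation, over the 3 plates together, the members moved apart: Ccnd2 rose with LPS, MDP_LPS and Zymosan, and Ccnd1 fell with 6 of the 11 stimuli. In the DMSO wells alone none of these Ccnd2 rises passed, as given below. LPS, a bacterial cell wall component sensed by TLR4, was given alone or with MDP, a fragment of peptidoglycan, and Zymosan is a yeast cell wall preparation. In the wells of 60 to 180 min of the 3 plates (15 per condition), Ccnd2 averaged 1158 ± 709 CPM in MDP_LPS, 955 ± 701.7 in LPS and 758 ± 575 in Zymosan, against 228 ± 209 in NoStim (SD over plates and times). The next levels were 352 ± 335 in Poly(I:C), 323 ± 171 in R848, 287 ± 296 in SeV, 251 ± 150.1 in Pam3cys, 247 ± 197 in CpG and 237 ± 227 in FLA. MDP at 199 ± 164 and TDB at 151 ± 137 lay below NoStim. In that order the step from Zymosan to Poly(I:C) was the only one between neighbours wider than the smaller of their SDs.

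Against NoStim, with plate and time as a joint block, Ccnd2 rose by 1.95 ± 0.35 on the log2 scale with LPS (3.87-fold, adjusted p = 1.2e-05), higher in 13 of 15 plate-and-time pairs. It rose by 2.30 ± 0.35 with MDP_LPS (4.92-fold, adjusted p = 1.06e-07), higher in 15 of 15, and by 1.63 ± 0.36 with Zymosan (3.09-fold, adjusted p = 0.000799), higher in 13 of 15. In these comparisons 4.33%, 3.9% and 2.96% of 5771 genes were called. For the other 8 stimuli the Ccnd2 values ran from -0.48 with TDB (95% interval -1.26 to 0.31) to 0.69 with R848 (-0.04 to 1.41), none past the threshold. All 11 comparisons share the same 15 NoStim wells.

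Differences between the stimuli themselves were tested as well, after seeing these levels. Ccnd2 differed among the 11 stimuli (F test, adjusted p = 1.16e-17) and so did Ccnd1 (0.000941), but Ccnd3 did not pass (0.729), where 6.91% of genes were called. Ccnd2 was higher with LPS than with CpG, FLA, MDP, Pam3cys, Poly(I:C), SeV and TDB, by 1.58 to 2.43 on the log2 scale (adjusted p up to 0.00219). In that order 1.35%, 1.46%, 3.05%, 1.21%, 3.34%, 2.6% and 3% of genes were called. LPS against R848 missed the threshold at 1.27 ± 0.34 (adjusted p = 0.0725, 0.329% called). LPS did not differ detectably from MDP_LPS (-0.35 ± 0.32, 95% interval -0.98 to 0.29, 0.0173% called) or from Zymosan (0.32 ± 0.33, -0.32 to 0.97, 0%). Zymosan and the synthetic lipopeptide Pam3cys, which share the receptor TLR2, differed by 1.28 ± 0.35 and missed the threshold (adjusted p = 0.0631, 0.624%).

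**Figure D2:**
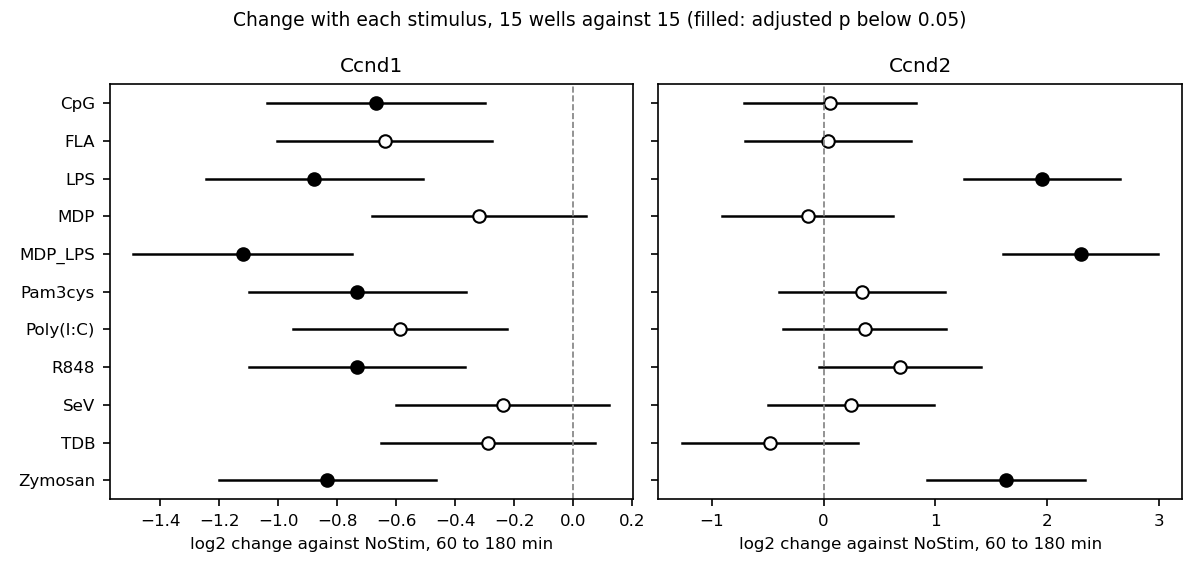
Log2 change of Ccnd1 (left) and Ccnd2 (right) with each of 11 stimuli against NoStim (x axis) in the wells of 60 to 180 min. Each change sets 15 wells against 15, from the DMSO, dCA and BRD-6989 plates together. The line is the 95% interval and a filled point has an adjusted p below 0.05. Ccnd2 passes with LPS, MDP_LPS and Zymosan, from 1.63 to 2.30, and Ccnd1 reaches -1.12 with MDP_LPS.

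Ccnd1 was highest without a stimulus. Over the same wells it averaged 1339.6 ± 347 CPM in NoStim, then 1172 ± 458 in SeV, 1111 ± 354 in TDB, 1073 ± 299 in MDP and 908 ± 218 in Poly(I:C). It averaged 872 ± 329.8 in FLA, 872 ± 334 in CpG, 843 ± 349.8 in R848 and 840.4 ± 263 in Pam3cys. The lowest levels were 780.4 ± 352 in Zymosan, 743 ± 386 in LPS and 640.3 ± 300.4 in MDP_LPS, and no step between neighbours in this order exceeded their SDs. Averaged over the 11 stimuli, Ccnd1 fell by 0.64 on the log2 scale (SE 0.14, 1.56-fold, adjusted p = 0.000217), lower in 13 of 15 plate-and-time pairs. Of the 3 members it alone was called, in a comparison with 2.25% of 5771 genes called and 0.693% called lower. The same mean gave 0.64 ± 0.28 for Ccnd2 (adjusted p = 0.333) and -0.28 ± 0.57 for Ccnd3 (adjusted p = 0.908).

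By stimulus, Ccnd1 fell past the threshold in 6 of 11, and the 3 stimuli that raised Ccnd2 gave its largest falls. It changed by -1.12 ± 0.19 with MDP_LPS (adjusted p = 1.24e-06, lower in 15 of 15 pairs) and by -0.88 ± 0.19 with LPS (adjusted p = 0.000335). With Zymosan it changed by -0.83 ± 0.19 (adjusted p = 0.00109, lower in 15 of 15). R848, a small-molecule TLR7 agonist, gave -0.73 ± 0.19, Pam3cys -0.73 ± 0.19 and CpG, a DNA ligand of TLR9, -0.67 ± 0.19, with adjusted p up to 0.0329. With these last 3 stimuli 2.43%, 2.01% and 1.75% of genes were called. FLA at -0.64 ± 0.18 (adjusted p = 0.053) and Poly(I:C), a double-stranded RNA mimic, at -0.59 ± 0.18 (adjusted p = 0.064) missed it. MDP, TDB and SeV stood between -0.32 and -0.24. With FLA, Poly(I:C), MDP, TDB and SeV 1.21%, 2.37%, 0.139%, 0.0866% and 0.139% of genes were called. Ccnd1 with LPS was -0.64 ± 0.19 against SeV (adjusted p = 0.0345), the only stimulus from which LPS differed for this gene past the threshold.

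The plates were also fitted alone. The mean Ccnd1 change over 11 stimuli was -0.42 in the DMSO wells alone (adjusted p = 0.621), -0.89 in dCA (0.0366) and -0.62 in BRD-6989 (0.2). The Ccnd2 rise with LPS was 0.82 in DMSO alone (adjusted p = 0.54), 2.89 after dCA (0.00261) and 2.82 after BRD-6989 (0.00374). With MDP_LPS it was 1.33 (0.162), 3.01 (0.00118) and 3.28 (0.000299), and with Zymosan 0.25 (0.947), 2.69 (0.00777) and 2.55 (0.0181). The plates are not shown to differ by this: the direct test of the difference from DMSO at 60 to 180 min did not pass for dCA (2.11 ± 0.85 with LPS, adjusted p = 0.499, 1.70 ± 0.85 with MDP_LPS, 0.668, and 2.47 ± 0.86 with Zymosan, 0.427). Nor did it for BRD-6989 (2.01 ± 0.88, adjusted p = 0.727, 1.89 ± 0.87, 0.876, and 2.28 ± 0.89, 0.65).

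The course over time was followed in single wells. With LPS, Ccnd2 in DMSO read 104, 399, 89.5, 135, 561, 733, 1710.0 and 1854 CPM from 15 to 180 min. In dCA it read 197, 174, 138, 325, 524, 856, 1612 and 2236 CPM, and in BRD-6989 163, 46.5, 0, 128, 329, 366, 1482 and 1477 CPM. On all 3 plates the wells of 150 and 180 min were the highest, and each well up to 60 min lay below each well from 90 min on, while the 0 in BRD-6989 allows up to 87.9 CPM. With MDP_LPS the series were 259, 167, 249, 606, 796, 1549, 1514 and 1755 CPM in DMSO, 100.3, 125, 26.5, 102, 755, 1155, 1956 and 2436 after dCA and 112, 0, 166, 238, 160.1, 1011, 1795 and 1549 after BRD-6989. With Zymosan they were 692, 309, 136, 81.2, 739.8, 550.0, 686 and 1198 CPM in DMSO, 122, 49.6, 192, 62.4, 415, 1254, 1506 and 1792 after dCA and 72.5, 225, 59.2, 136, 183, 283, 1125 and 1364 after BRD-6989. The DMSO wells given Zymosan were high from 90 min on and also at 15 min, and with BRD-6989 the wells of 150 and 180 min stood far above the rest. Poly(I:C) wells of 150 and 180 min read 657 and 1110.4 CPM in DMSO, 737 and 787 after dCA and 359.6 and 449 after BRD-6989, the highest of that stimulus on each plate.

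**Figure D3:**
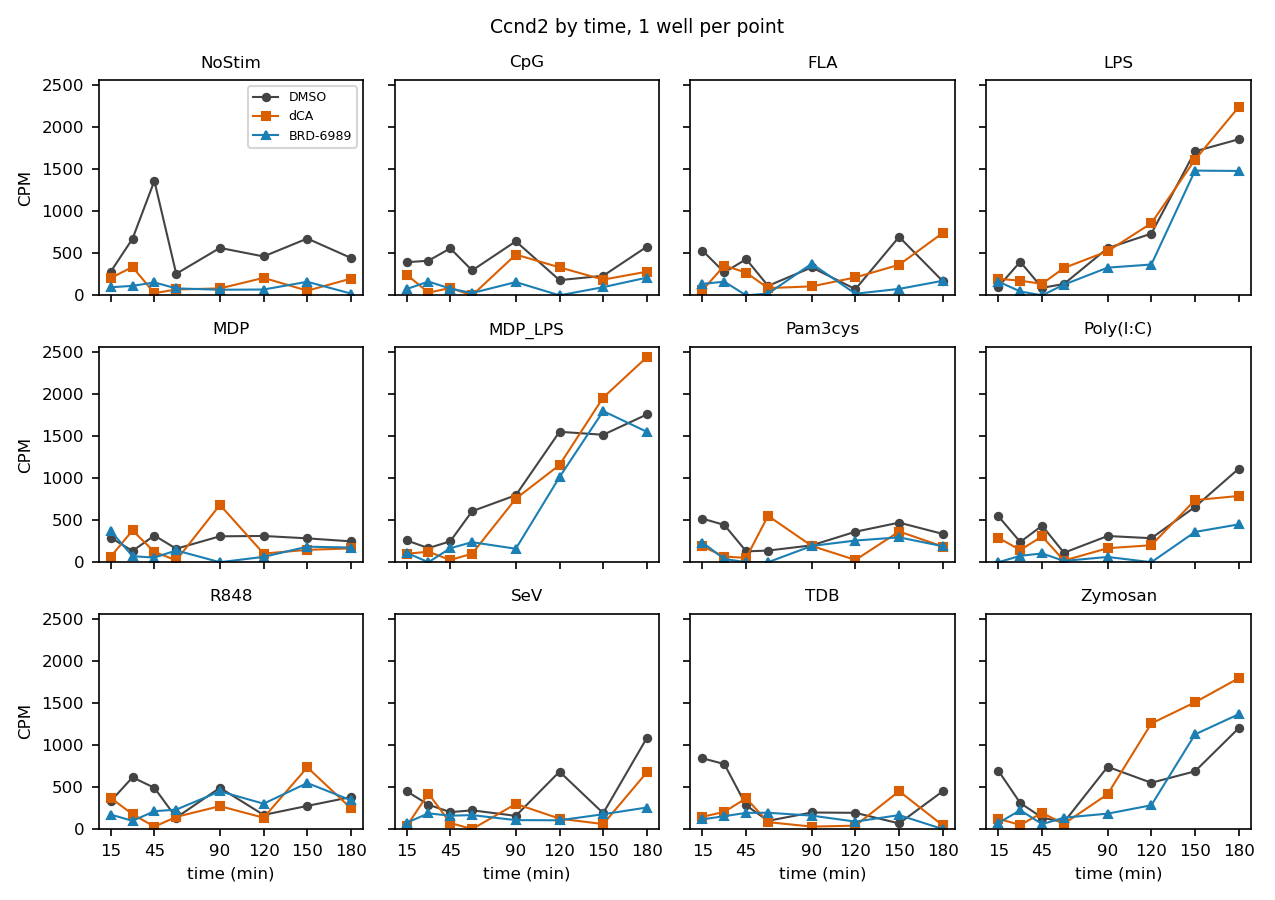
Ccnd2 (y axis, CPM) against time after stimulation (x axis, min) in each condition, with 1 well per point and a line per pretreatment. The LPS, MDP_LPS and Zymosan panels climb after 60 min on all plates, to 2236 CPM with LPS after dCA, while in the NoStim panel the DMSO line lies above the others.

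As a slope per hour shared by the plates, the Ccnd2 change on the log2 scale exceeded that of NoStim by 1.68 ± 0.32 with LPS (adjusted p = 0.000273), by 1.84 ± 0.32 with MDP_LPS (adjusted p = 4.45e-05) and by 1.37 ± 0.32 with Zymosan (adjusted p = 0.00571). In these comparisons 0.58%, 0.836% and 0.495% of 5864 genes were called. The Poly(I:C) slope was 0.80 ± 0.22 against 0 (adjusted p = 0.00624, 1.3% called), but did not pass against NoStim (0.95 ± 0.32, adjusted p = 0.236, 0.307%). Ccnd1 ran the other way: against NoStim its slope was -0.60 ± 0.15 with MDP_LPS (adjusted p = 0.0134) and -0.62 ± 0.14 with Zymosan (adjusted p = 0.00993), and with R848 it missed at -0.58 ± 0.14 (adjusted p = 0.0524, 0.0853% called). Averaged over the 11 stimuli the slope against 0 was -0.30 ± 0.03 for Ccnd1 (adjusted p = 9.45e-17) and 0.57 ± 0.07 for Ccnd2 (adjusted p = 2.22e-14), with 13.3% of genes called. Less the NoStim slope, these means missed the threshold, at -0.38 ± 0.11 (adjusted p = 0.0791) and 0.72 ± 0.24 (adjusted p = 0.261), where 0.273% were called. The slopes in NoStim itself were 0.08 ± 0.10 and -0.15 ± 0.23, and no gene was called there by edgeR, with 284 of 5864 genes at an unadjusted p under 0.05. The slopes by stimulus were added after seeing the data.

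The fall of Ccnd1 with MDP_LPS and Zymosan was seen in single wells. With MDP_LPS it read 1322, 1479, 971, 1111, 516, 634, 154 and 509 CPM in DMSO, 502, 1672, 1114, 1120.0, 604, 513, 391 and 592 after dCA and 985, 1115, 1139.8, 615, 480.2, 1275, 624 and 466 after BRD-6989. With Zymosan it read 1717, 1525, 1364, 839, 768, 1008, 966 and 809 CPM in DMSO, 1242, 1338, 887, 1716, 805, 1069.6, 436 and 398 after dCA and 1184, 1021, 1213, 894, 733, 526, 349.9 and 387 after BRD-6989. The wells of 15 and 30 min lay above those of 150 and 180 min in each of these 6 series, except the dCA well of 15 min with MDP_LPS, which lay below the well of 180 min. With LPS the DMSO wells of 150 and 180 min read 822 and 359.7 CPM, those of dCA 445 and 768, and those of BRD-6989 231 and 1082, so the last well did not share the fall.

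**Figure D4:**
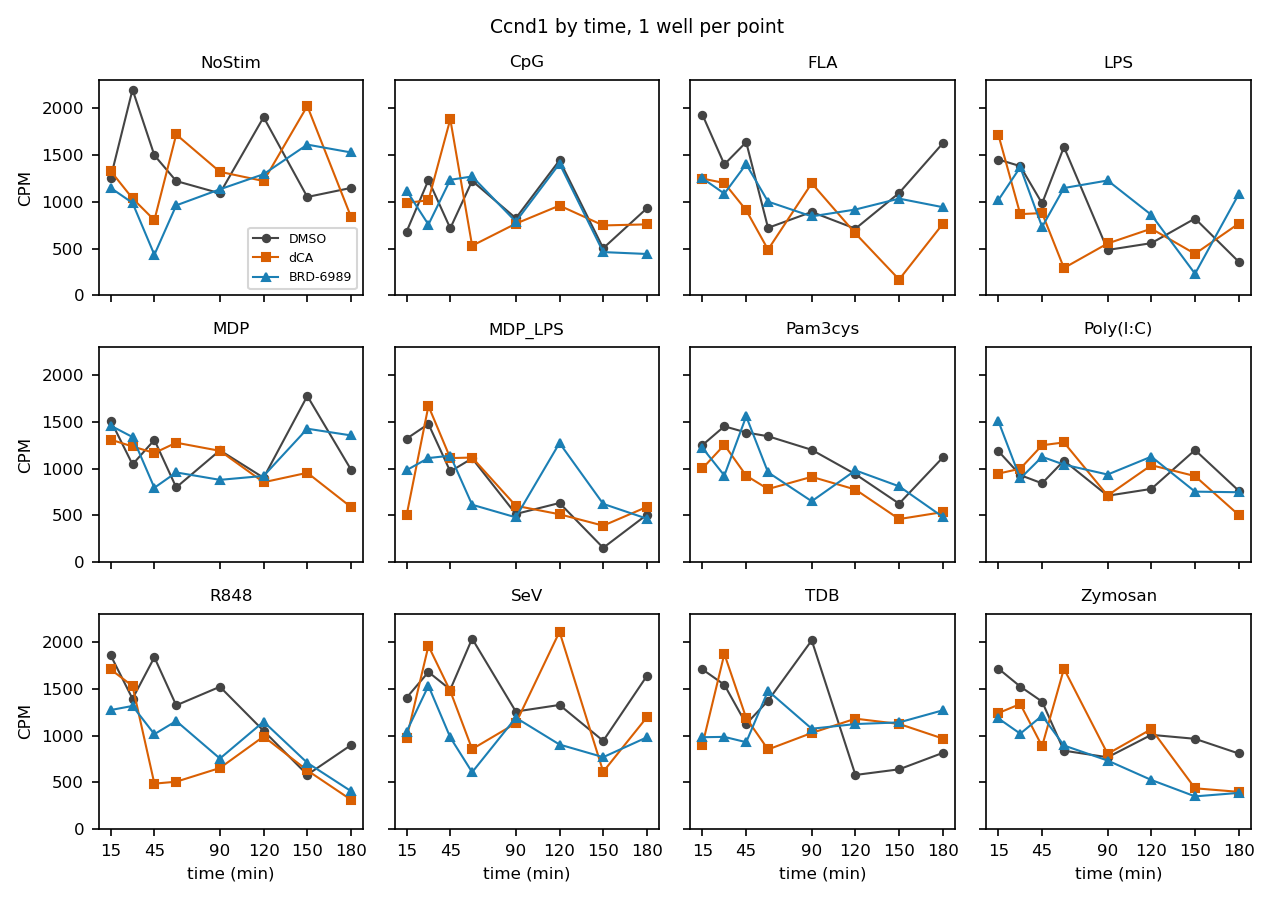
Ccnd1 (y axis, CPM) against time after stimulation (x axis, min) in each condition, with 1 well per point and a line per pretreatment. The MDP_LPS and Zymosan lines lie lower at 150 and 180 min than at 30 min on all plates, with MDP_LPS in DMSO at 154 CPM at 150 min.

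In the wells of 15 to 45 min no member was called against NoStim over the 11 stimuli. The values were 0.08 ± 0.14 for Ccnd1, -0.57 ± 0.34 for Ccnd2 and -0.60 ± 0.67 for Ccnd3 (adjusted p from 0.855 to 1), and 0.0834% of 5998 genes were called. Pooled over the 12 wells of a time, Ccnd2 in DMSO read 379 CPM at 45 min, 192 at 60 min and 427 at 90 min. In dCA these were 131, 115 and 327, and in BRD-6989 99.2, 112 and 196. The 60 min level was the lowest in DMSO and dCA; this time is 1 plate row, and the part of the row was not tested.

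Whether the compounds changed the response itself was tested as an interaction, the change with stimuli after a compound less that after DMSO, at 60 to 180 min. For Ccnd2 it was 1.66 ± 0.68 with dCA (log2, unadjusted p = 0.0147, adjusted p = 0.745 in edgeR) and 1.62 ± 0.71 with BRD-6989 (unadjusted p = 0.021, adjusted p = 0.952), both short of the threshold. For Ccnd1 it was -0.48 ± 0.33 and -0.23 ± 0.33, and for Ccnd3 -1.08 ± 1.46 and -1.43 ± 1.40, all with an adjusted p of 1. Of 5771 genes 0 were called in either comparison (0%), while 330 and 262 had an unadjusted p under 0.05. The same 0 was found with Rn45s share as a covariate, with TMM factors and on total reads, and no other tool was run. By stimulus, the Ccnd2 interaction ran from 0.76 (SeV) to 2.47 (Zymosan) with dCA and from 0.31 (CpG) to 2.87 (R848) with BRD-6989. None of these 22 passed, with 0% of genes called in each; they share the same NoStim wells.

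At 120 to 180 min, a window chosen after seeing the data, levels after the compounds were set against DMSO in each condition, 3 wells against 3. In LPS wells Ccnd2 read 733, 1710.0 and 1854 CPM in DMSO, 856, 1612 and 2236 after dCA and 366, 1482 and 1477 after BRD-6989. These sets overlapped, and the differences were 0.14 ± 0.56 with dCA (95% interval -0.97 to 1.24) and -0.43 ± 0.56 with BRD-6989 (-1.54 to 0.67). With MDP_LPS they were 0.10 ± 0.55 (-0.99 to 1.19) and -0.22 ± 0.55 (-1.31 to 0.87), and with Zymosan 0.95 ± 0.57 (-0.17 to 2.07) and 0.11 ± 0.58 (-1.04 to 1.25). In NoStim the same window gave -1.68 ± 0.66 (-2.98 to -0.38, adjusted p = 0.547) and -2.69 ± 0.74 (-4.15 to -1.22, adjusted p = 0.107). For the other 8 stimuli the BRD-6989 values ran from -1.92 ± 0.65 with SeV (-3.20 to -0.64, adjusted p = 0.53) to 0.58 ± 0.63 with R848. Those of FLA (-1.75 ± 0.73), CpG (-1.72 ± 0.74), Poly(I:C) (-1.41 ± 0.61), TDB (-1.40 ± 0.78), MDP (-1.08 ± 0.70) and Pam3cys (-0.62 ± 0.64) were also negative. Over all 8 of these stimuli Ccnd2 was below DMSO in 20 of 24 wells. With dCA the values of these 8 stimuli ran from -1.37 ± 0.62 with SeV (-2.61 to -0.14, adjusted p = 0.665) to 0.52 ± 0.63 with FLA, and Ccnd2 was below DMSO in 18 of 24 wells. No condition passed for Ccnd2 with either compound, and between 0.0348% and 0.365% of 5752 genes were called in these 24 comparisons. For NoStim, LPS, MDP_LPS and Zymosan the shares were 0.0695%, 0.0348%, 0.0522% and 0.365% with dCA and 0.156%, 0.0348%, 0.0695% and 0.313% with BRD-6989.

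**Figure D5:**
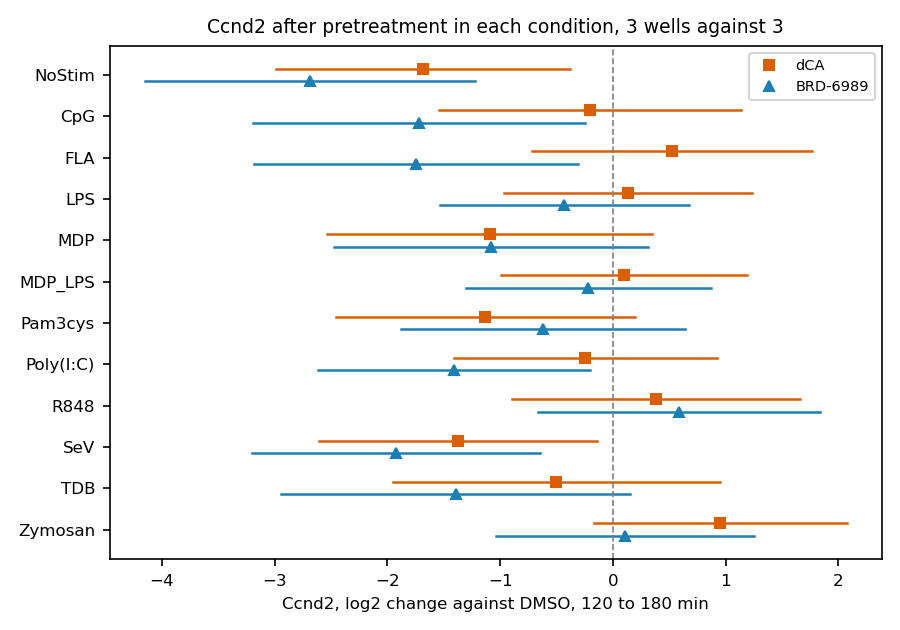
Log2 change of Ccnd2 after dCA or BRD-6989 against DMSO (x axis) in each of 12 conditions (y axis) at 120 to 180 min, 3 wells against 3, with 95% intervals. The NoStim estimates are -1.68 and -2.69, those in LPS and MDP_LPS lie between -0.43 and 0.14, and no adjusted p is below 0.05.

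Set against the NoStim wells of their own plate in that window, the Ccnd2 rise with LPS was 1.33 ± 0.58 in DMSO (adjusted p = 0.412), 3.15 ± 0.64 after dCA (0.00107) and 3.59 ± 0.72 after BRD-6989 (0.000333). In these comparisons 0.765%, 0.921% and 1.25% of genes were called. The NoStim wells behind them read 462, 675 and 444 CPM in DMSO, 208, 55.5 and 199 after dCA and 69.5, 161 and 21.2 after BRD-6989. The NoStim wells of dCA and BRD-6989 all lay below those of DMSO here, while the LPS wells of the plates overlapped. With MDP_LPS the Ccnd2 rise was 1.63 ± 0.58 in DMSO (adjusted p = 0.277), 3.41 ± 0.64 after dCA (0.000217) and 4.10 ± 0.72 after BRD-6989 (1.7e-05), and with Zymosan 0.55 ± 0.59 (0.814), 3.19 ± 0.64 (0.000984) and 3.35 ± 0.73 (0.0015). With MDP_LPS 0.782%, 1.06% and 1.18% of genes were called in DMSO, dCA and BRD-6989, and with Zymosan 0.487%, 0.991% and 1.06%. For Ccnd1, MDP_LPS in DMSO at -1.68 ± 0.44 (adjusted p = 0.0281, 0.782% of genes called) and Zymosan in BRD-6989 at -1.85 ± 0.43 (0.00675, 1.06%) passed in this window.

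The make-up of the D-type cyclin transcripts differed with pretreatment and stimulus. In NoStim wells over all times Ccnd1 made up 69.8% (65.8 to 73.4) of D-type cyclin UMI in DMSO, 87.4% (84.0 to 90.2) in dCA and 89.4% (86.1 to 92.0) in BRD-6989, with 95% Wilson intervals that cover counting error only. In LPS wells of 150 to 180 min Ccnd2 made up 75.8% (68.5 to 81.8), 74.4% (68.1 to 79.8) and 65.8% (59.4 to 71.6) on these plates. In MDP_LPS wells it was 81.5% (74.7 to 86.8), 81.7% (76.1 to 86.1) and 75.3% (69.7 to 80.1). Ccnd2 was thus the larger part late after LPS and MDP_LPS on all plates, and Ccnd1 the larger part without a stimulus. In Zymosan wells the Ccnd2 part was 50.8% (42.3 to 59.1) in DMSO, 78.8% (72.2 to 84.1) in dCA and 76.8% (69.5 to 82.7) in BRD-6989. The sum of the 3 genes in LPS wells of that window was 2359, 2629 and 2248 CPM, beside 1659.5, 1502 and 1649 CPM in NoStim. Differences in capture between the 3 transcripts were not tested.

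Ccnd3 stayed near the level of single UMI. At 60 to 180 min it ranged over conditions from 13.9 ± 21.9 CPM in MDP_LPS to 55.6 ± 72.2 in TDB (SD, n = 15 wells), with 30.8 ± 39.1 in NoStim, and no step between neighbours in that order exceeded the SDs. None of the 11 stimuli was called. It had 0 UMI in 33 of 96 DMSO wells, 51 of 96 dCA wells and 41 of 96 BRD-6989 wells. The values ran from -1.12 with MDP_LPS (95% interval -2.78 to 0.54) to 0.58 with TDB (-0.91 to 2.06), and that of LPS was near 0 with an interval of -1.53 to 1.52, so changes within such intervals could not be seen at this depth.

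The genes whose pattern was most like that of each member were ranked by Pearson correlation of log2(CPM + 5) over the 36 libraries, with each pretreatment's mean taken off, among 6347 genes; the libraries share conditions and plates, so r is a description. For Ccnd2 they were the interferon-induced genes Oasl1 (r = 0.84), Cxcl10 (0.83) and Ifit2 (0.82), the ubiquitin ligase gene Peli1 (0.82) and Tiparp (0.82). For Ccnd1 they were the co-receptor gene Nrp1 (0.71), Txnip, a thioredoxin inhibitor (0.69), Lhfpl2 (0.69), the condensin gene Smc4 (0.68) and Irf2bp2 (0.68). For Ccnd3 they were Eif3k (0.70), Pwwp2b (0.61), Wdfy4 (0.60), Cast (0.59) and Cdk2ap1 (0.57). Between members r was -0.60 for Ccnd1 and Ccnd2, 0.45 for Ccnd1 and Ccnd3 and -0.02 for Ccnd2 and Ccnd3 (n = 36).

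The partners of the D-type cyclins were tested with the same fits. Of 22 genes of the CDK4/6 kinases, their inhibitors and the RB and E2F proteins, 17 were tested; with dCA 1 was lower and 0 higher (median log2 change -0.28, beside -0.01 over all genes). With BRD-6989 2 were lower and 0 higher (median 0.01, beside 0.01). Of all genes 13.4% were called with dCA and 15.4% with BRD-6989, so these small counts are not read as a result about the list. Cdkn1a, which encodes the CDK inhibitor p21, was lower with both, at -0.36 ± 0.09 with dCA (adjusted p = 0.00203) and -0.36 ± 0.09 with BRD-6989 (0.00132). E2f1, an activator of replication genes, was lower with BRD-6989 at -0.74 ± 0.20 (adjusted p = 0.00667). The kinase genes stood at 0.29 ± 0.24 and 0.01 ± 0.24 for Cdk4 and 0.75 ± 0.49 and 0.25 ± 0.50 for Cdk6 with dCA and BRD-6989, and did not pass. The same held for the inhibitor gene Cdkn1b at -0.64 ± 0.52 and -0.55 ± 0.50 and for the retinoblastoma gene Rb1 at 0.22 ± 0.43 and 0.34 ± 0.42.

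With stimuli at 60 to 180 min Cdkn1a rose by 1.56 ± 0.18 over the 11 (adjusted p = 3.68e-12), by 2.75 ± 0.22 with LPS, 2.51 ± 0.22 with MDP_LPS and 2.50 ± 0.22 with Zymosan (adjusted p up to 3.95e-20). Of the 6 genes of its list that were tested there, it was the only one called over the 11, beside 2.25% of all genes. Cdk6 and Cdkn1b were below the filter in single wells. With MDP_LPS the RB family gene Rbl2 was lower as well, at -2.76 ± 1.17 (adjusted p = 0.0186). Its levels of 32.2, 18.9 and 33.0 CPM over the DMSO, dCA and BRD-6989 plates were near that of single UMI per well. At such counts the printed SE and the p-value, which comes from the quasi-likelihood F test, need not match. Csf1r, the M-CSF receptor gene, was lower with LPS at -0.62 ± 0.19 (adjusted p = 0.0263) and stood at -0.22 ± 0.13 over the 11 (adjusted p = 0.556). Myc, a growth regulator, stood at -0.10 ± 0.41 (adjusted p = 0.975), Cdk4 at 0.59 ± 0.52 (0.71) and Rb1 at 0.96 ± 0.79 (0.659). In unstimulated wells none of these passed with dCA or BRD-6989; Csf1r came nearest, at -0.80 ± 0.25 with BRD-6989 (adjusted p = 0.0887). At 15 to 45 min none of them passed, with Cdkn1a at 0.69 ± 0.28 (adjusted p = 0.678) and Myc at -1.02 ± 0.46 (0.707).

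Of 32 genes of M-CSF and mitogen input, 28 were tested over the 12 conditions. With dCA 4 were higher and 5 lower (median -0.23, beside -0.01 over all genes, of which 13.4% were called), and with BRD-6989 2 were higher and 5 lower (median -0.10, beside 0.01 and 15.4%). Csf1r, which is also among the macrophage markers, was lower with dCA at -0.23 ± 0.06 (adjusted p = 0.00903) and with BRD-6989 at -0.46 ± 0.06 (1.66e-07). The immediate early factor Egr1 was lower with both (-1.59 ± 0.27 and -1.14 ± 0.26), as was the AP-1 gene Junb (-0.66 ± 0.10 and -0.50 ± 0.10), while Egr2 was higher (1.31 ± 0.27 and 1.31 ± 0.27), as was the GTPase gene Nras (0.48 ± 0.13 and 0.39 ± 0.13). With dCA Fos (-1.39 ± 0.34) and Jun (-0.46 ± 0.12), further AP-1 genes, were lower and Myc (0.70 ± 0.17) and the beta-catenin gene Ctnnb1 (0.57 ± 0.15) were higher. Myc with BRD-6989 missed the threshold at 0.46 ± 0.17 (adjusted p = 0.0553). With stimuli at 60 to 180 min 1 of the 26 genes tested was higher (Junb) and 2 were lower (Dusp6 and Jun) over the 11, beside 2.25% of all genes called. At 15 to 45 min Egr1 alone was called, as higher, beside 0.0834% of all genes. With BRD-6989 over the 12 conditions the kinase gene Pik3cd (-0.99 ± 0.22) and the transcription factor gene Stat3 (-0.82 ± 0.19) were lower.

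Downstream, 24 of 28 genes of E2F targets and S phase were tested. With dCA 4 were lower and 1 higher (median -0.28, beside -0.01), and with BRD-6989 3 and 1 (median -0.35, beside 0.01). Of all genes tested, 13.4% and 15.4% were called in either direction and 5.95% and 7.42% were called lower. The list as a whole was not tested. Pcna, the sliding clamp of DNA polymerase, was the one that was higher, at 0.72 ± 0.11 with dCA and 0.95 ± 0.11 with BRD-6989. The lower ones with dCA were the polymerase gene Pola1 (-0.83 ± 0.29), the topoisomerase gene Top2a (-0.60 ± 0.14), the proliferation marker Mki67 (-0.52 ± 0.10) and the methyltransferase gene Dnmt1 (-0.45 ± 0.15). With BRD-6989 they were the helicase gene Mcm7 (-0.85 ± 0.25), the ligase gene Lig1 (-0.53 ± 0.18) and Dnmt1 (-0.41 ± 0.14). Between the compounds Top2a and Mki67 were lower with dCA than with BRD-6989. With stimuli at 60 to 180 min none of the 18 genes tested was called over the 11, beside 2.25% of all genes. Of 16 other cyclins tested, Ccne2, a cyclin of the step into S phase, was lower with dCA at -1.53 ± 0.50 (adjusted p = 0.0271) and none passed with BRD-6989. Of 12 genes of cyclin D turnover tested, Skp1a, a ubiquitin ligase subunit, was higher with dCA at 0.88 ± 0.29 (adjusted p = 0.0329) and none passed with BRD-6989.

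The reporter table, whose columns name the same pretreatments, stimuli and times, holds no construct named for E2F or MYC, and 2 named for STAT5, a factor downstream of cytokine receptors. As a share of a well's reporter counts, STAT5_6 held 1.55% ± 0.464 in DMSO, 1.27% ± 0.464 after dCA and 1.41% ± 0.412 after BRD-6989 (SD, n = 5 NoStim wells of 60 to 180 min). STAT5_57 held 1.74% ± 0.518, 1.52% ± 0.556 and 1.41% ± 0.211. The construct minP_58, named for a minimal promoter, held 1.39% ± 0.537, 1.50% ± 0.249 and 1.37% ± 0.463 in the same wells, so the STAT5 shares lay within the spread of that background. In the 55 stimulated wells of each plate STAT5_6 held 1.30% ± 0.250, 1.44% ± 0.263 and 1.39% ± 0.294. STAT5_57 held 1.2% ± 0.221, 1.25% ± 0.230 and 1.26% ± 0.229 there, below its NoStim mean on each plate. Those NoStim means rest on 68, 97 and 78 counts. The construct minP_58 held 1.28% ± 0.247, 1.44% ± 0.242 and 1.39% ± 0.238. NFkB_1 held 5.92%, 3.25% and 3.65% in NoStim and 22.7%, 15.2% and 15.4% in the stimulated wells, and shares of a well depend on each other. These differences were not tested.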

How the data were processed

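The wells were measured by 3′ digital gene expression; per the submitters' processing notes the tools were BWA and edgeR and the build mm10, and no further step is given in the sources used here. The authors deposited UMI counts, total read counts and reporter counts, all raw, and a reporter table named as normalized that holds the same values as the raw one and was left out. Columns were matched to wells by the well code or name in the labels. The members, gene lists and tests were chosen with earlier results of these data known.

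Rn45s was left out of the counts. For pretreatments the 8 times of a condition were summed into 36 libraries (227325 to 449471 UMI), TMM-scaled, filtered by filterByExpr with a minimum count of 10, and tested with edgeR 4.0.16 (R 4.3.3, glmQLFTest, condition as a block, Benjamini-Hochberg adjustment over all genes tested, threshold 0.05, 2-sided). Single wells were fitted with offsets from the UMI total and no TMM, on genes averaging 1 UMI or more over the wells, with time, or plate and time, or plate and condition, as blocks. The SE is the quasi-likelihood Wald SE. Alternatives were DESeq2 1.42.0, total reads, other scaling, filters and blocks, single plates and leaving out each condition or time. Blocks pair wells by the condition and time in the labels. The fits were also run on simulated wells drawn without plate, column or row effects, so that run could not show the part of such effects. Named genes were the members, the 5 genes most like each in the 36 libraries (mean of at least 20 CPM), list genes passing for either compound (up to 4 per list and direction) and 7 fixed ones (Cdk4, Cdk6, Cdkn1a, Cdkn1b, Rb1, Csf1r and Myc).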

Additional observations from a re-analysis of the deposited data

Results flagged for a closer look

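In each pretreatment and condition the 8 wells of a member were searched for 1 that stood far from the rest, by Dixon's test at 95%, which chance alone flags in about 1 of 20 groups. Each member had 36 such groups, and 15 groups in all held such a well. For Ccnd2 they were the DMSO NoStim well of 45 min at 1359 CPM, the dCA FLA well of 180 min at 742 and the BRD-6989 FLA well of 90 min at 376. The first of these also held the highest Ccnd3 value of its group, 244 CPM from 7 UMI. The dCA FLA well of 180 min was flagged for Ccnd3 at 23.2 CPM, which is 1 UMI in a group with a median of 0. All flagged Ccnd3 wells held from 1 to 7 UMI. For Ccnd1 the wells were dCA CpG at 45 min with 1885 CPM, dCA LPS at 15 min with 1717 and dCA TDB at 30 min with 1874. The remaining Ccnd3 wells were DMSO MDP_LPS at 150 min with 77.0 CPM, dCA MDP_LPS at 15 min with 125 and dCA Pam3cys at 45 min with 51.5. In BRD-6989 they were FLA at 30 min with 92.7, MDP_LPS at 30 min with 166, Pam3cys at 60 min with 62.1 and R848 at 90 min with 94.4 CPM.

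The change with time differed from that of NoStim in a test of the difference for 5 slopes. For Ccnd2 the log2 difference per hour was 1.68 with LPS, 1.84 with MDP_LPS and 1.37 with Zymosan. For Ccnd1 it was -0.60 with MDP_LPS and -0.62 with Zymosan.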

How the results depend on the processing

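Of the values recomputed without leaving out a condition or time, 327 kept their direction and their side of the threshold, 49 no longer passed, 7 newly passed and 27 changed sign; the cause was not tested. As reported, the genes called numbered 1045 for dCA against DMSO, 1196 for BRD-6989 against DMSO and 152 for dCA against BRD-6989, 51 and 62 for the compounds in NoStim, 130 and 5 for the mean of the stimuli late and early, and 1231 for single stimuli. With single wells in place of summed libraries, Ccnd1 stood at -0.24 for dCA against DMSO (adjusted p = 0.00652) and -0.044 for dCA against BRD-6989. Ccnd3 stood at -0.045 for dCA against BRD-6989. In the BRD-6989 wells alone, the genes called numbered 32 for the mean of the stimuli at 60 to 180 min and 377 for single stimuli, summed over the 11. Ccnd1 stood at -0.62 for the mean of the stimuli at 60 to 180 min (adjusted p = 0.2). Ccnd2 stood at 0.44 for MDP alone and 0.71 for TDB alone. In the DMSO wells alone, the genes called numbered 32 for the mean of the stimuli at 60 to 180 min, 283 for single stimuli, summed over the 11 and 3 for the mean of the stimuli at 15 to 45 min. Ccnd1 stood at -0.42 for the mean of the stimuli at 60 to 180 min (adjusted p = 0.621), 0.13 for SeV alone and -0.31 for the mean of the stimuli at 15 to 45 min. Ccnd2 stood at -0.25 for the mean of the stimuli at 60 to 180 min, -0.32 for CpG alone, -0.86 for FLA alone, -0.71 for Pam3cys alone, -0.18 for Poly(I:C) alone, -0.76 for R848 alone and -0.16 for SeV alone. Ccnd3 stood at 0.53 for the mean of the stimuli at 60 to 180 min. In the dCA wells alone, the genes called numbered 27 for the mean of the stimuli at 60 to 180 min, 282 for single stimuli, summed over the 11 and 1 for the mean of the stimuli at 15 to 45 min. Ccnd2 stood at 0.67 for MDP alone. With DESeq2 and its size factors, the genes called numbered 11 for the mean of the stimuli at 15 to 45 min, 255 for dCA against BRD-6989, 97 for dCA against DMSO in NoStim and 107 for BRD-6989 against DMSO in NoStim. Ccnd1 stood at -0.18 for dCA against DMSO (adjusted p = 0.0306). With Rn45s kept, Ccnd1 stood at -0.17 for BRD-6989 against DMSO (adjusted p = 0.0575). With Rn45s share added as a covariate, the genes called numbered 11 for the mean of the stimuli at 15 to 45 min, 592 for dCA against DMSO, 180 for BRD-6989 against DMSO, 67 for dCA against BRD-6989 and 25 for BRD-6989 against DMSO in NoStim. Ccnd1 stood at -0.10 for BRD-6989 against DMSO (adjusted p = 0.862), -0.034 for dCA against BRD-6989 and -0.99 for BRD-6989 against DMSO in NoStim (adjusted p = 0.0344). Ccnd2 stood at -0.021 for FLA alone and 0.69 for dCA against BRD-6989 (adjusted p = 0.173). Ccnd3 stood at -0.71 for dCA against DMSO (adjusted p = 0.411), -0.42 for BRD-6989 against DMSO (adjusted p = 0.907), -0.28 for dCA against BRD-6989 and 0.028 for BRD-6989 against DMSO in NoStim. Without TMM factors, Ccnd1 stood at -0.23 for dCA against DMSO (adjusted p = 0.0066) and -0.018 for dCA against BRD-6989. With no filter on low counts, Ccnd1 stood at -0.17 for BRD-6989 against DMSO (adjusted p = 0.0946). Ccnd2 stood at -1.87 for dCA against DMSO in NoStim (adjusted p = 0.07). Ccnd3 stood at -0.93 for dCA against DMSO (adjusted p = 0.0734). Without condition as a block, the genes called numbered 62 for dCA against BRD-6989. Ccnd1 stood at -0.19 for BRD-6989 against DMSO (adjusted p = 0.13). Ccnd2 stood at -0.28 for dCA against DMSO (adjusted p = 0.651), -0.81 for BRD-6989 against DMSO (adjusted p = 0.0713) and 0.53 for dCA against BRD-6989 (adjusted p = 0.513). On total reads, the genes called numbered 82 for the mean of the stimuli at 60 to 180 min, 91 for dCA against BRD-6989, 22 for dCA against DMSO in NoStim and 23 for BRD-6989 against DMSO in NoStim. Ccnd1 stood at -0.046 for the mean of the stimuli at 15 to 45 min and -0.24 for dCA against DMSO (adjusted p = 0.0126). Ccnd2 stood at -0.079 for FLA alone, 0.32 for MDP alone, 0.53 for dCA against BRD-6989 (adjusted p = 0.0928), -1.94 for dCA against DMSO in NoStim (adjusted p = 0.201) and -2.03 for BRD-6989 against DMSO in NoStim (adjusted p = 0.144). Ccnd3 stood at -1.11 for dCA against DMSO (adjusted p = 0.0835), -1.16 for BRD-6989 against DMSO (adjusted p = 0.0679) and 0.56 for dCA against DMSO in NoStim. In the wells of 120 to 180 min, Ccnd2 stood at -0.15 for CpG alone. With the times from 60 min summed, the genes called numbered 62 for dCA against BRD-6989. Ccnd1 stood at -0.11 for BRD-6989 against DMSO (adjusted p = 0.488) and -0.11 for dCA against BRD-6989. Ccnd2 stood at -0.25 for dCA against DMSO (adjusted p = 0.39) and 0.57 for dCA against BRD-6989 (adjusted p = 0.0644). Ccnd3 stood at -0.89 for dCA against DMSO (adjusted p = 0.271), -0.83 for BRD-6989 against DMSO (adjusted p = 0.269) and -0.060 for dCA against BRD-6989. With the times of 15 to 45 min summed, the genes called numbered 365 for dCA against DMSO, 449 for BRD-6989 against DMSO and 34 for dCA against BRD-6989. Ccnd1 stood at -0.25 for BRD-6989 against DMSO (adjusted p = 0.0634). Ccnd2 stood at 0.55 for dCA against BRD-6989 (adjusted p = 0.315). Ccnd3 stood at -0.89 for dCA against DMSO (adjusted p = 0.397) and -1.13 for BRD-6989 against DMSO (adjusted p = 0.215). Leaving out 1 condition in turn, 920 to 981 genes were called for dCA against DMSO, 1052 to 1122 genes were called for BRD-6989 against DMSO and 111 to 153 genes were called for dCA against BRD-6989, and leaving out 1 time in turn, 35 to 56 for dCA against DMSO in NoStim and 41 to 53 for BRD-6989 against DMSO in NoStim. Without 1 condition, Ccnd1 ran from -0.19 to -0.13 for dCA against DMSO, -0.21 to -0.15 for BRD-6989 against DMSO and -0.020 to 0.043 for dCA against BRD-6989. Without 1 condition, Ccnd2 ran from -0.58 to -0.37 for dCA against DMSO, -1.15 to -0.92 for BRD-6989 against DMSO and 0.49 to 0.63 for dCA against BRD-6989. Without 1 condition, Ccnd3 ran from -1.07 to -0.79 for dCA against DMSO, -1.16 to -0.84 for BRD-6989 against DMSO and -0.18 to 0.23 for dCA against BRD-6989. Without 1 time in NoStim, Ccnd1 ran from -0.33 to -0.036 for dCA against DMSO and -0.49 to -0.18 for BRD-6989 against DMSO. Without 1 time in NoStim, Ccnd2 ran from -2.08 to -1.52 for dCA against DMSO and -2.66 to -2.39 for BRD-6989 against DMSO. Without 1 time in NoStim, Ccnd3 ran from -0.96 to 0.39 for dCA against DMSO and -0.93 to 0.31 for BRD-6989 against DMSO. Among these, the values that changed sign were -0.0022, -0.020, -0.0093 for Ccnd1 with dCA against BRD-6989, 0.13, 0.31 for Ccnd3 with BRD-6989 against DMSO in NoStim, -0.18, -0.0038, -0.016, -0.0059 for Ccnd3 with dCA against BRD-6989 and 0.39 for Ccnd3 with dCA against DMSO in NoStim. The wells of 120 to 180 min and of 15 to 45 min, and the tests between single stimuli, were chosen after seeing the data. Depth limits Ccnd3 most: a single UMI was worth a median of 25.3 CPM, close to its level, and single plates hold 1 well for each condition and time.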
